A study of Arabidopsis thaliana with 60 samples.

Results

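The question was which genes answered infiltration with dexamethasone differently at 2 h in the 2 control lines of an Arabidopsis thaliana study: the mYFP line and ppsdes. For each gene the response of the mYFP line (2 h over 0 h) was compared with the response of ppsdes (2 h over 0 h), and the comparison used the 12 libraries of these 4 groups, 3 each, of 60 libraries in all. The mYFP line is Col-0 carrying DEXp:mYFP, a monomeric yellow fluorescent protein behind a dexamethasone-inducible promoter in a pTA7002 vector. The ppsdes plants are Col-0 with 6 mutations and no transgene: dde2-2 blocks jasmonate synthesis, ein2-1 ethylene signalling and sid2-2 pathogen-induced salicylic acid synthesis, and pad4-1, sag101-2 and pen2-1 impair further immune functions. In both, leaves of 4-week-old plants were syringe-infiltrated with 1 µM dexamethasone and sampled at 2 h or 0 h, each sample pooling leaf discs of 6 plants. The other 2 lines carry a dexamethasone-inducible fusion of mYFP to MLACC, the N-terminal coiled-coil part of an immune receptor from barley, either in wild type (MLACC line) or in ppsdes (MLACC ppsdes line), and are used below only as further libraries.

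A leaf infiltrated by syringe receives pressure, water and the injected agent at once. Touch and wounding are known to raise jasmonate within minutes, and its active conjugate frees MYC transcription factors from JAZ repressors; ethylene acts through EIN2, and salicylic acid made by ICS1 acts through NPR1. In pTA7002 vectors the plant also makes a chimeric activator, built from a yeast GAL4 DNA-binding domain, a viral activation domain and the ligand-binding domain of the glucocorticoid receptor, which dexamethasone switches on. The mYFP line therefore differs from ppsdes in the 6 mutated genes, in the inducible construct and in the count table its libraries came from. These cannot be told apart in the comparison of the 2 lines, although a shift common to all libraries of a table cancels in it.

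Of 18484 genes tested, 13 differed between the 2 responses (0.0703%; edgeR quasi-likelihood test, Benjamini-Hochberg false discovery rate, FDR, below 0.01 and a log2 difference above 1 in size). The mYFP response was higher for 12 of them (0.0649% of genes tested) and lower for 1 (0.00541%). They included CYS2, a phytocystatin that inhibits cysteine proteases, MES11, a methyl esterase, MYBC1, a MYB-like factor, and AT1G29660, a GDSL-type lipase. By comparison, 1168 genes rose and 864 fell at 2 h in the mYFP line (6.32% and 4.67% of those tested), and 1343 rose and 878 fell in ppsdes (7.27% and 4.75%). Of the genes that rose, 700 were shared, 59.9% of those in the mYFP line and 52.1% of those in ppsdes. Of the genes that fell, 467 were shared (54.1% and 53.2%), and 1 gene was called in opposite directions. Over the 18484 genes, the 2 responses had a Pearson r of 0.811, given as a description because genes of a library are not independent. The median log2 difference over all genes was 0.00156 and its median standard error (SE) 0.264.

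**Figure D1:**
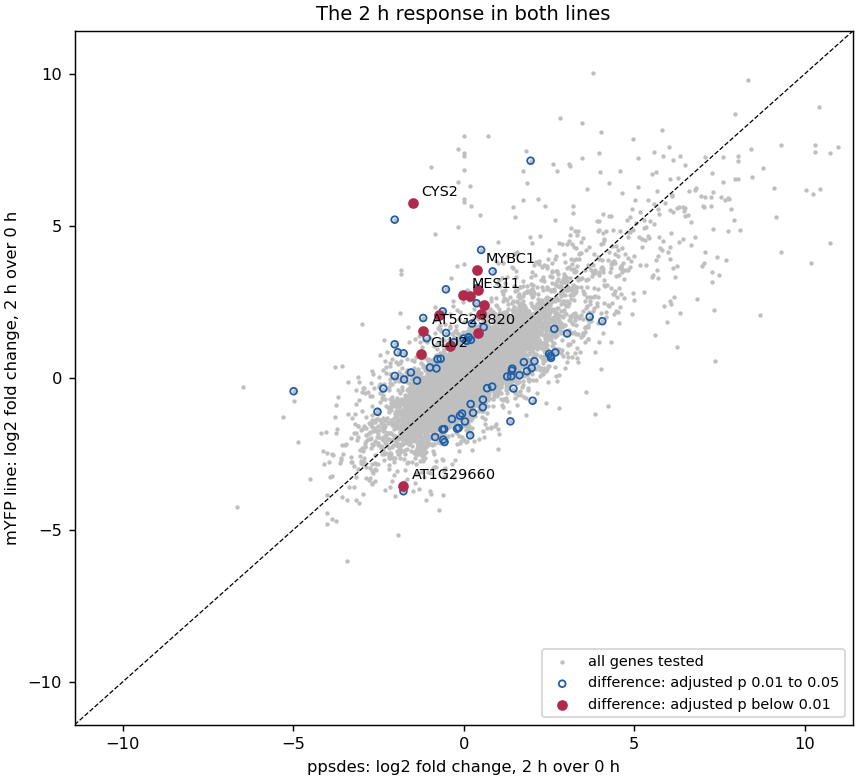
Log2 fold change, 2 h over 0 h, in the mYFP line (vertical axis) against ppsdes (horizontal axis) for each of the 18484 genes tested. The 13 genes that differed at an FDR below 0.01 are filled and named in part, and those with an adjusted p of 0.01 to 0.05 are open circles. CYS2 lies farthest above the dashed line of equal response among the 13, and AT1G29660 lies below it.

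The 12 libraries held 18.8 to 25.8 M gene counts each. At 2 h, 1 library of each line had the smallest response. The chi-square per gene between replicates set replicate 3 of the mYFP line apart (55.2 and 75.9, against 14.3 for replicates 1 and 2). In ppsdes it was 33.2 for replicates 1 and 2, 33.2 for 2 and 3, and 63.5 for 1 and 3. The genes that rose in ppsdes had a median log2 rise of 1.06, 1.11 and 0.776 in the 3 mYFP libraries, and the genes that rose in the mYFP line had one of 0.928, 1.15 and 1.21 in the 3 ppsdes libraries, so that replicate 3 of the mYFP line and replicate 1 of ppsdes had the smallest response. Without both libraries, 10 genes were higher and 1 lower, and 9 of the 13 kept their call. With any 1 of the 12 libraries left out, 7 of the 13 (CYS2, MYBC1, MES11, AT1G31550, GLU2, BETA-UP and AT1G29660) kept their call, and all 13 kept their sign. The count was 7 without replicate 1 of the mYFP line at 0 h, 8 without replicate 2 or replicate 3 of ppsdes at 0 h and otherwise 9 to 19. Photosynthesis genes, the markers of leaf mesophyll, were abundant throughout, with a summed level, in counts scaled to library size (CPM), of 155990 to 169010 at 2 h and 176200 to 188970 at 0 h in the mYFP line, and of 153770 to 158350 at 2 h and 181230 to 202270 at 0 h in ppsdes.

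The promoters of 5 of the 13 genes are shown because these genes had the 4 differences described first and the only negative one. Each is the 250 bases before the annotated gene start, read from RefSeq TAIR10.1 and written 5′ to 3′ on the gene's strand. Capitals mark matches, on either strand, to 5 motifs: the GAL4 site (CGG and CCG with 11 bases between them), the G-box CACGTG, the CGCG core of CAMTA factors, the TGACG core of TGA factors and the W-box core TTGAC, of which the last 2 can overlap.
CYS2, chr2:13609956-13610205, minus strand: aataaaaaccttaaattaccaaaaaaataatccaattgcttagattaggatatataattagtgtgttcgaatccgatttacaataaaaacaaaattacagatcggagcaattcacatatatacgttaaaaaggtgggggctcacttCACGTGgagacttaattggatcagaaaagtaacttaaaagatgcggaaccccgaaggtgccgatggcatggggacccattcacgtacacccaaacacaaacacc
MYBC1, chr2:17098732-17098981, minus strand: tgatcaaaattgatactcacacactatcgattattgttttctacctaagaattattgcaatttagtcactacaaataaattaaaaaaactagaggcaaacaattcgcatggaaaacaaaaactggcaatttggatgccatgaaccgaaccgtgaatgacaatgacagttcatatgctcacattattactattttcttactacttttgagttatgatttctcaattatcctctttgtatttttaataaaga
MES11, chr3:11647846-11648095, plus strand: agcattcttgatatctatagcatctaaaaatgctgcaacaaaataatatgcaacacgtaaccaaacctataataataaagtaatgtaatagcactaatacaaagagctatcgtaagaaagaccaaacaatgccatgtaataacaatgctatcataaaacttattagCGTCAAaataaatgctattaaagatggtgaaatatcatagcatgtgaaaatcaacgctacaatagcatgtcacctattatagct
AT1G18610, chr1:6405357-6405606, plus strand: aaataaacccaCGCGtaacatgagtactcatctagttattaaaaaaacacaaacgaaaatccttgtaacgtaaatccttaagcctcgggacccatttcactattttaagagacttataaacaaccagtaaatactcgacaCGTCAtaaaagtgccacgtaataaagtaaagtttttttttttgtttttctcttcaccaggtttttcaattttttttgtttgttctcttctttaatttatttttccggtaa
AT1G29660, chr1:10371425-10371674, plus strand: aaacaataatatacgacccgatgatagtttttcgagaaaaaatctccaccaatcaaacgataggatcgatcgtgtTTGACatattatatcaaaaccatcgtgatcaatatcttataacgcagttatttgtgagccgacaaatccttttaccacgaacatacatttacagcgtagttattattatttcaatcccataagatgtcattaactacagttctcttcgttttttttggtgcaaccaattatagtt
A GAL4 site was in 0 of the 12 protein-coding genes among the 13 and in 1.06% of the 27443 nuclear protein-coding promoters. A G-box was in 2 of the 12, CYS2 and AT5G23820, against 6.49% of all promoters. CGCG was in 1 of the 12, AT1G18610, against 2783 of the 27443, TGACG in 2, MES11 and AT1G18610, against 18.6%, and TTGAC in 4 against 44.9%. These letters are a description of the windows.

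CYS2 (AT2G31980, chr2:13609093-13609955) showed the largest difference of the 13. It had 59.3, 53.8 and 101 CPM at 2 h and 1.49, 1.57 and 0.975 CPM at 0 h in the mYFP line. In ppsdes it had 0.364, 0.868 and 0.952 CPM at 2 h and 0.725, 3.10 and 2.50 CPM at 0 h, which are 8 to 25 reads per library at 2 h. Every mYFP library at 2 h was above every other library, and the remaining 3 groups lay below 4 CPM. The log2 response was 5.75 ± 0.48 in the mYFP line and -1.50 ± 0.52 in ppsdes, a difference of 7.24 ± 0.69 (SE; edgeR adjusted p = 0.00149). The annotated ends of CYS2 and of AT2G31970 on the other strand overlap by 12 bases, and AT2G31970 had a mean of 21.1 CPM at 2 h in the mYFP line and 17.8 CPM at 2 h in ppsdes.

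MYBC1 (AT2G40970) had 26.6, 19.8 and 28.1 CPM at 2 h and 2.33, 1.66 and 2.54 CPM at 0 h in the mYFP line, against 2.41, 2.14 and 2.89 CPM at 2 h and 2.02, 1.87 and 1.90 CPM at 0 h in ppsdes. Its log2 difference was 3.15 ± 0.28 (SE; edgeR adjusted p = 0.000898). MES11 (AT3G29770), of a family that cleaves methyl esters of plant hormones, had 74.1, 65.7 and 89.4 CPM at 2 h and 12.4, 10.5 and 12 CPM at 0 h in the mYFP line, against 11.8, 11.4 and 7.88 CPM at 2 h and 11.2, 10.09 and 10.7 CPM at 0 h in ppsdes. Its log2 response was 2.74 ± 0.17 in the mYFP line and -0.02 ± 0.16 in ppsdes. In both genes the 2 h libraries of the 2 lines did not overlap, while the 0 h libraries lay side by side.

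AT1G18610, annotated with kelch repeats, reached 98.0, 81.5 and 113 CPM at 2 h in the mYFP line, against 17.1, 14.5 and 10.7 CPM at 2 h in ppsdes, a log2 difference of 2.45 ± 0.24 (edgeR adjusted p = 0.00176). SARK (AT4G30520), a receptor-like kinase tied to leaf senescence, had 35.3, 33.8 and 48.0 CPM at 2 h in the mYFP line, against 11.5, 11.2 and 10.2 CPM at 2 h in ppsdes. BETA-UP (AT5G64370), beta-ureidopropionase of pyrimidine breakdown, had 60.2, 61.6 and 65.8 CPM, against 20.3, 21.2 and 18.0 CPM. For SARK and BETA-UP the ppsdes response was positive as well but small, 0.61 ± 0.14 and 0.51 ± 0.11 on the log2 scale, and did not reach the fold threshold. AT1G31550, a GDSL-type lipase, and AT1G15240, a phox-domain protein, showed the same order, with log2 differences of 2.50 ± 0.23 and 1.05 ± 0.13. AT1G15240 was among those named after their values were seen, and it overlaps AT1G15250 on the other strand by 30 bases.

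Like CYS2, further genes among the 13 had responses of opposite sign in the 2 lines. GLU2 (AT2G41220), a ferredoxin-dependent glutamate synthase of nitrogen assimilation, had 42.1, 48.6 and 51.1 CPM at 2 h and 24.9, 29.3 and 30.3 CPM at 0 h in the mYFP line. In ppsdes it had 10.6, 11.1 and 11.9 CPM at 2 h and 28.1, 27.0 and 25.8 CPM at 0 h. The 0 h groups overlapped, and at 2 h one line was above and the other below them. GLU2 fell in ppsdes (-1.24 ± 0.11 on the log2 scale) and its 0.77 ± 0.11 in the mYFP line did not reach the fold threshold. AT5G23820, with a lipid-recognition domain, was the gene called in opposite directions: it rose in the mYFP line (1.54 ± 0.23; edgeR adjusted p = 0.000576) and fell in ppsdes (-1.19 ± 0.24; edgeR adjusted p = 0.00297). It had 17.5, 21.9 and 30.7 CPM at 2 h in the mYFP line, against 2.91, 3.01 and 3.39 CPM at 2 h in ppsdes. AT5G18640, an alpha/beta hydrolase named after its values were seen, and AT5G09443, a non-coding RNA, rose in the mYFP line (1.06 ± 0.11 and 2.08 ± 0.24) and had -0.41 ± 0.11 and -0.73 ± 0.25 in ppsdes, which were not called. Their log2 differences were 1.47 ± 0.16 and 2.81 ± 0.35. AT5G09443 overlaps AT5G09445 on the other strand by 818 bases, and the libraries keep no strand.

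**Figure D2:**
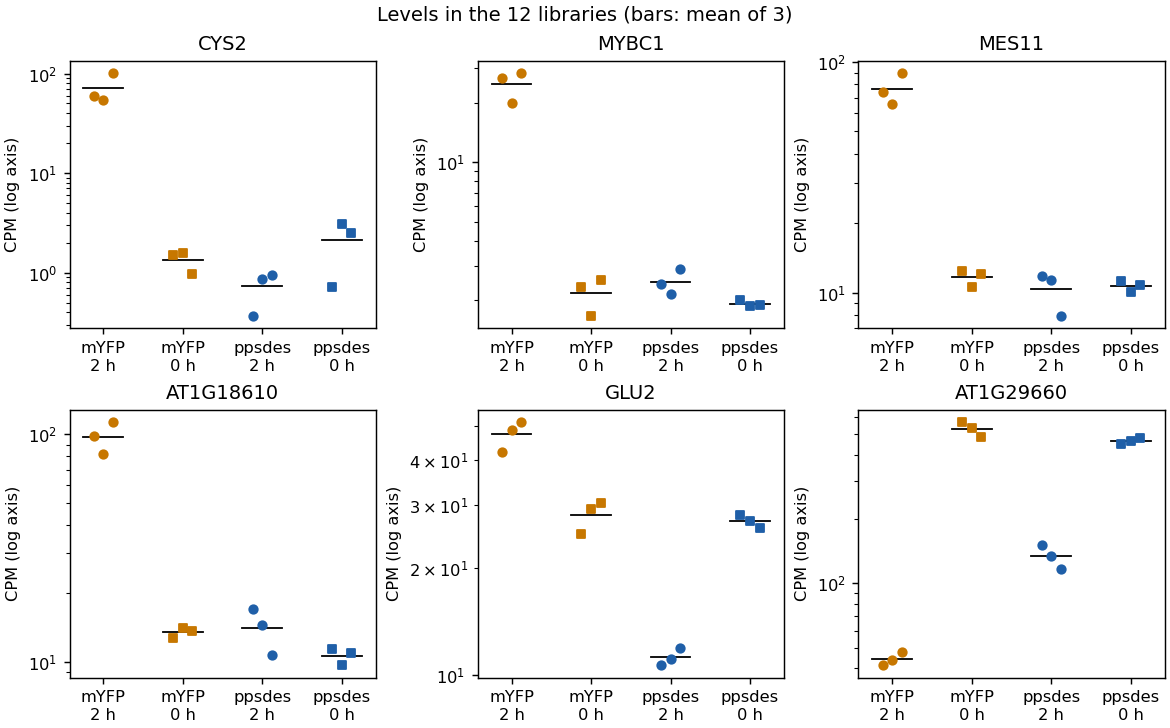
Levels of 6 of the 13 genes, in CPM on log axes, in each library of the mYFP line at 2 h and 0 h and of ppsdes at 2 h and 0 h; horizontal bars are means of 3. For CYS2, MYBC1, MES11 and AT1G18610 only the mYFP libraries at 2 h are high, GLU2 is raised in the mYFP line and lowered in ppsdes at 2 h, and AT1G29660 is lower at 2 h in both, with 41.2 to 47.7 CPM in the mYFP line and 117 to 150 CPM in ppsdes.

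AT1G29660, the single gene with a lower mYFP response, fell in both lines. It had 41.2, 43.7 and 47.7 CPM at 2 h and 567, 532 and 485 CPM at 0 h in the mYFP line, against 150, 134 and 117 CPM at 2 h and 449, 464 and 481 CPM at 0 h in ppsdes. The log2 response was -3.55 ± 0.12 in the mYFP line and -1.77 ± 0.11 in ppsdes, a difference of -1.78 ± 0.16 (SE; edgeR adjusted p = 0.000898). In the edgeR fit of all 60 libraries this call was lost (adjusted p = 0.602), with the same sign. Its tandem neighbour AT1G29670, of the same family and named after its values were seen, had a log2 difference of -0.88 ± 0.39 that was not called (edgeR adjusted p = 0.396). Most epidermal markers also had a lower response in the mYFP line. Of 11 epidermal, guard cell and trichome genes tested, 10 had a lower mYFP response and 0 were called, with a median log2 difference of -0.383 against 0.00156 over all genes. Their summed level was 659 to 830 CPM at 2 h and 1176 to 1340.2 CPM at 0 h in the mYFP line, and 1023 to 1217 CPM at 2 h and 1043 to 1664 CPM at 0 h in ppsdes. Among them LTP1 (RefSeq LP1) and the wax gene CER3 fell in the mYFP line (-1.49 ± 0.24 and -1.54 ± 0.29) and their values in ppsdes were -0.56 ± 0.24 and -0.59 ± 0.29, while the trichome regulator GL1 (RefSeq MYB0) had a mean of 0.0264 CPM in the mYFP line at 2 h and 0 in the other 3 groups. What part these markers have in the result for AT1G29660 was not tested, and in these leaf samples fewer cells of a type and less RNA per cell cannot be told apart.

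The genes nearest the threshold without passing it were ALDH7B4, an aldehyde dehydrogenase, AT5G60160, a zinc exopeptidase, and AT1G06590, an anaphase-promoting complex subunit, with log2 differences of 1.43 ± 0.19, 1.18 ± 0.15 and 1.38 ± 0.18 and edgeR adjusted p-values of 0.0116, 0.0116 and 0.0117. Just inside it lay AT5G09443 and AT1G15240, both at 0.00878. At an FDR below 0.05 and the same fold threshold, 47 genes had a higher and 40 a lower mYFP response (0.254% and 0.216% of genes tested, 0.471% together). The genes named from these 87, and those named from the gene lists below, were chosen after their values were seen.

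Of the 47, 32 rose in the mYFP line (6.32% of all genes) and 12 fell in ppsdes (4.75%), directions the contrast itself favours. Among them AT5G05320, annotated as an FAD/NAD(P)-binding oxidoreductase, had 31.1, 29.7 and 27.5 CPM at 2 h and 0.179, 0.333 and 0.0975 CPM at 0 h in the mYFP line, against 0.501, 0.357 and 0.381 CPM at 2 h and 0.155, 0.148 and 0 CPM at 0 h in ppsdes. Its log2 difference was 5.18 ± 0.90 (edgeR adjusted p = 0.0411), at under 1 CPM in all 6 ppsdes libraries. ATAF1, a NAC factor of stress and senescence, had 66.8, 64.5 and 80.0 CPM at 2 h in the mYFP line, against 12.7, 22.6 and 23.96 CPM at 2 h in ppsdes, and a log2 difference of 2.80 ± 0.37 (edgeR adjusted p = 0.0121). UBC17, a ubiquitin-conjugating enzyme, and AT1G74150, a kelch-repeat protein, had log2 differences of 2.66 ± 0.43 and 3.70 ± 0.49. SARD4 (AT5G52810), which acts in the synthesis of the systemic resistance signal pipecolic acid, had 39.7, 40.4 and 34.7 CPM at 2 h in the mYFP line, against 5.73, 7.30 and 9.37 CPM at 2 h in ppsdes. GDSL-type or SGNH lipase genes made up 6 of the 87 (6.90%) and 52 of all 18484 genes tested (0.281%); AT1G54010, AT1G28570, AT1G31550 and AT1G28580 were higher, and AT3G16370 and AT1G29660 lower. AT1G28570 and AT1G28580 are neighbours, as are AT1G15230 and AT1G15240, so these are not independent loci. The lipase family was chosen after the 87 genes were seen, so its share among them is a description only.

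Of the 40 genes with a lower mYFP response, 15 fell in the mYFP line (4.67% of all genes) and 20 rose in ppsdes (7.27%). The contrast itself favours these directions as well. The 14 members of the growth and auxin list described below include 0 of these 40. SCL3, a GRAS regulator of gibberellin responses, had 36.1, 33.0 and 29.9 CPM at 2 h and 17.2, 26.8 and 14.04 CPM at 0 h in the mYFP line, against 52.9, 47.6 and 45.1 CPM at 2 h and 8.18, 8.52 and 9.28 CPM at 0 h in ppsdes. The ppsdes libraries were thus the lowest at 0 h and the highest at 2 h. The RING gene RHA2A, a positive regulator of abscisic acid signalling, had 15.5, 15.8 and 10.4 CPM at 2 h in the mYFP line, against 42.3, 56.3 and 53.4 CPM at 2 h in ppsdes, and rose in both lines. AUF1, an F-box gene of auxin transport, rose in ppsdes (1.64 ± 0.16) with a value of 0.09 ± 0.15 in the mYFP line. AXR3, an Aux/IAA repressor, fell in the mYFP line (-1.64 ± 0.15) with a value of -0.14 ± 0.15 in ppsdes. HB-8, a homeodomain factor of vascular development, rose in ppsdes (1.28 ± 0.15) and had 0.05 ± 0.15 in the mYFP line. Further members were BRG2 and BRG3, RING genes related to BOI, with log2 differences of -1.90 ± 0.36 and -1.34 ± 0.25, the auxin response factor ARF10 with -1.28 ± 0.20, the SAUR gene AT4G34760 with -1.42 ± 0.24 and the homeodomain-like gene AT5G28300 with -1.85 ± 0.27.

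The same contrast in the MLACC lines rests on 12 other libraries. There the mutations and the table differ as they do between the mYFP line and ppsdes, but both lines carry an inducible construct. The induced protein is an active immune domain rather than mYFP. The study also reports a lower steady-state level of the MLACC protein in ppsdes, and its part in this contrast was not tested. Of 18636 genes tested, 0 were called (0%; edgeR), 2768 had an unadjusted p below 0.05 and DESeq2 called 384. Without replicate 2 of the MLACC ppsdes line at 2 h edgeR called 158, and without its replicate 3 it called 5. The 12 genes with a higher mYFP response had a median log2 difference of 2.48 between the mYFP line and ppsdes and of 0.50 between the MLACC lines. Of the 12, 11 were positive there (45% of all genes were) and 0 had an unadjusted p below 0.05 in the MLACC lines. For the 47 genes the medians were 2.01 and 0.54, with 41 positive in the MLACC lines and 11 of them at an unadjusted p below 0.05 (6.81% of all genes there). For the 40 genes with a lower mYFP response the medians were -1.49 and -1.19. Of these, 39 were negative in the MLACC lines, where 55% of all genes were, and 27 of them had an unadjusted p below 0.05 (8.04% of all genes). The exception was AOS, a mutated gene.

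**Figure D3:**
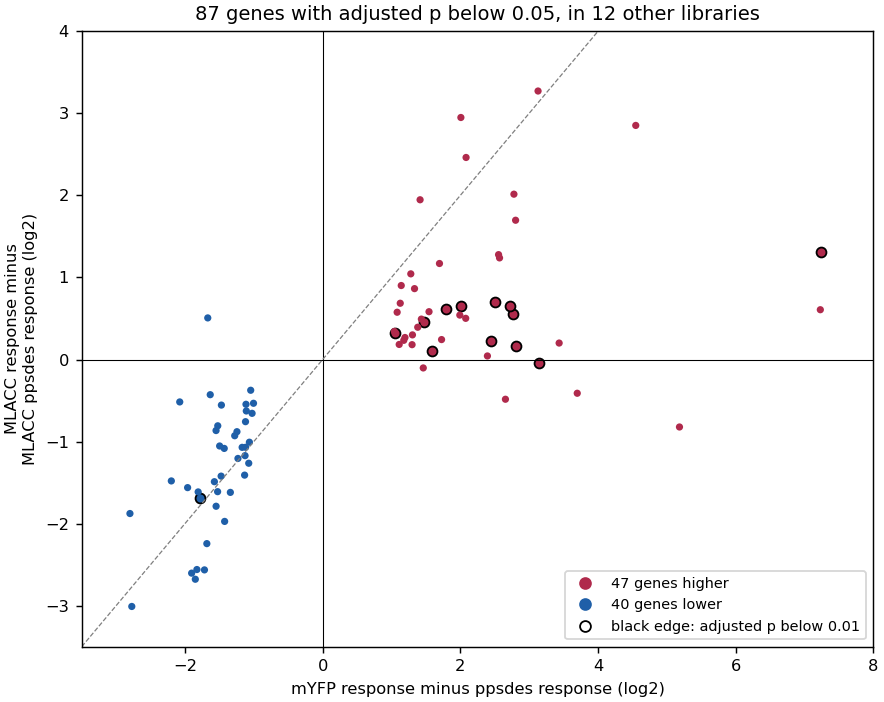
Log2 difference between the MLACC and MLACC ppsdes responses (vertical axis, 12 other libraries) against that between the mYFP and ppsdes responses (horizontal axis) for the 87 genes with an adjusted p below 0.05. The 40 genes with a lower mYFP response have medians of -1.19 (vertical) and -1.49 (horizontal), with AOS alone above 0 on the vertical axis, and the 47 with a higher one have medians of 0.54 and 2.01; the dashed line marks equal differences and points with a black edge are the 13 genes with an adjusted p below 0.01.

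Of the 12 genes, 11 rose in the mYFP line (6.32% of all genes), a direction the contrast itself favours. In the MLACC line 10 rose (11.5% of all genes rose and 6.83% fell there), and 10 rose in the MLACC ppsdes line (7.29% of all genes). In ppsdes 0 of the 12 rose (7.27% of all genes) and 2 fell (4.75%), which the contrast favours as well. CYS2 had a log2 response of 7.52 ± 0.52 in the MLACC line and 6.21 ± 0.49 in the MLACC ppsdes line. MYBC1 had 4.48 ± 0.38 and 4.52 ± 0.39, MES11 3.97 ± 0.35 and 3.42 ± 0.34, and AT1G18610 3.61 ± 0.41 and 3.38 ± 0.41. GLU2 and AT5G18640 were the members not called in the MLACC ppsdes line, at 0.28 ± 0.25 and 0.42 ± 0.28. The 2 h libraries of the MLACC ppsdes line were spread widely, with 53.7, 94.0 and 204 CPM of AT1G18610, all above the ppsdes libraries.

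A comparison added after these values were seen set the response of the MLACC ppsdes line against that of ppsdes, within a single table and with the same 6 mutations. It shares the ppsdes libraries with the main comparison and is no independent support for it. The log2 difference was 7.73 ± 0.81 for CYS2 (edgeR adjusted p = 0.013), 4.15 ± 0.46 for MYBC1 (edgeR adjusted p = 0.0146) and 3.46 ± 0.43 for MES11 (edgeR adjusted p = 0.0277), and -0.25 ± 0.54 for AT1G29660 (edgeR adjusted p = 1.00). Of 18464 genes, 0 were called at an FDR below 0.01 by edgeR (0%) and 502 had an unadjusted p below 0.05 (2.72%).

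Over the later times the order of the lines held for CYS2. In the mYFP line it had means of 1.35, 71.3, 147, 130 and 148 CPM at 0, 2, 4, 6 and 8 h, and in the MLACC ppsdes line 1.70, 127, 239, 327 and 253 CPM. In ppsdes it had 2.11, 0.728, 0.599, 0.475 and 0.784 CPM. MES11 had means of 11.7, 76.4, 56.7, 52.0 and 48.9 CPM in the mYFP line and of 10.7, 10.4, 5.91, 2.96 and 2.73 CPM in ppsdes. GLU2 had 28.2, 47.3, 103, 71.4 and 59.6 CPM in the mYFP line and 27.0, 11.2, 28.9, 31.8 and 30.1 CPM in ppsdes, so that its fall in ppsdes was seen at 2 h and its levels from 4 h were near that of 0 h. AT1G29660 stayed below its 0 h level in both lines, with 528, 44.2, 82.3, 99.6 and 117 CPM in the mYFP line and 464, 134, 170.5, 196 and 201 CPM in ppsdes.

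**Figure D4:**
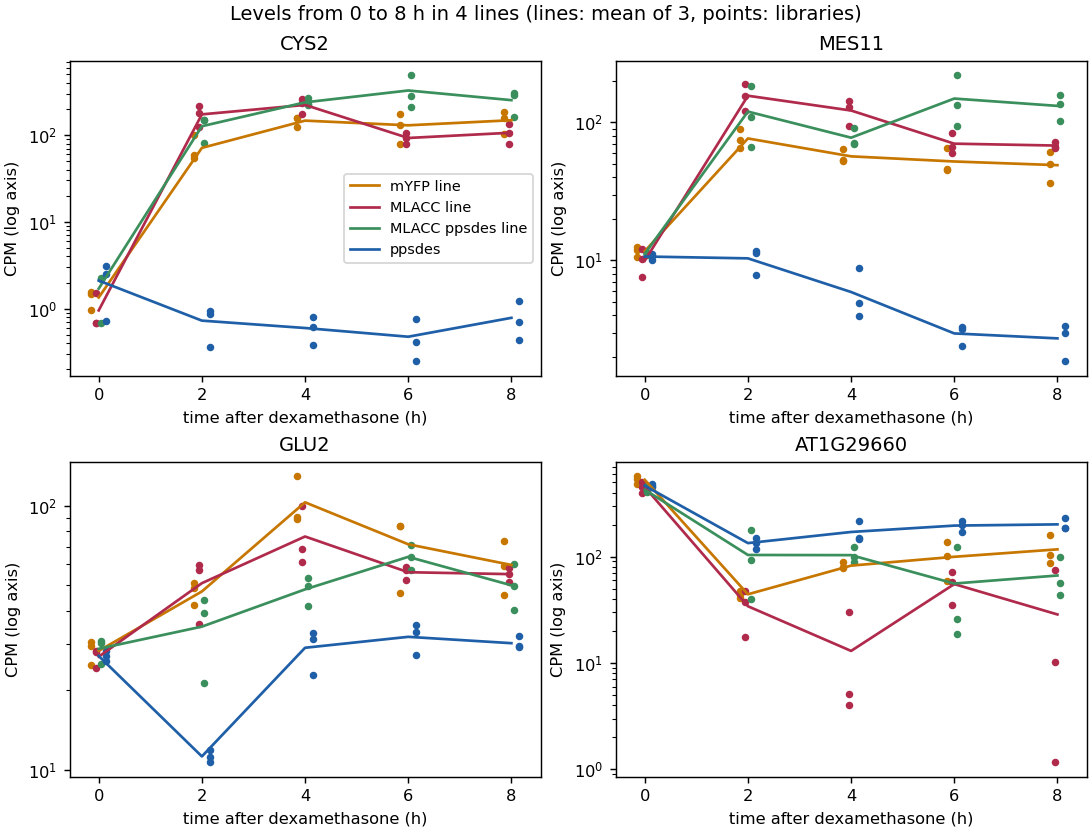
Levels of CYS2, MES11, GLU2 and AT1G29660, in CPM on log axes, at 0 to 8 h after dexamethasone in the mYFP, MLACC and MLACC ppsdes lines and in ppsdes; lines join means of 3 libraries and points are single libraries. For CYS2 and MES11 the 3 lines with a construct lie together above ppsdes from 2 h on, with CYS2 at 148 CPM in the mYFP line and 0.784 CPM in ppsdes at 8 h.

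The mutated genes themselves were measured in each library. AOS (the gene of dde2, allene oxide synthase of jasmonate synthesis) had 155, 127 and 120 CPM at 2 h and 112, 109 and 106 CPM at 0 h in the mYFP line, against 13.8, 15.8 and 20.5 CPM at 2 h and 3.63, 3.84 and 5.32 CPM at 0 h in ppsdes. It rose in ppsdes (2.00 ± 0.18) and had 0.33 ± 0.16 in the mYFP line, with a log2 difference of -1.67 ± 0.24 (edgeR adjusted p = 0.0183). ICS1 (RefSeq EDS16, the gene of sid2) had 15.9, 19.0 and 13.6 CPM at 2 h in the mYFP line, against 0.546, 0.664 and 0.609 CPM at 2 h in ppsdes, and a log2 difference of -0.17 ± 0.38. EIN2, the ethylene signal transducer, had log2 responses of 0.48 ± 0.15 and 0.46 ± 0.16 in the mYFP line and ppsdes, a difference of 0.03 ± 0.22. PAD4, SAG101 and PEN2 had log2 differences of 2.75 ± 1.1, -0.25 ± 0.57 and -0.91 ± 0.88 that were not called. PEN2 rose in ppsdes (2.81 ± 0.66). It had 393, 525 and 98.8 CPM at 2 h in the mYFP line, against 55.7, 225 and 198 CPM at 2 h in ppsdes. The low library of each line was the one with the smallest response at 2 h. Of the 6 mutated genes, 0 were called in the difference.

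The gene lists give the wider pathways. None of their members was called in the difference of responses, where 0.0703% of all genes were, and the lists are described by counts and medians. Of 13 aliphatic glucosinolate genes, which make methionine-derived defence compounds, 12 had a higher mYFP response, and the median log2 difference was 2.12 against 0.00156 over all genes. In the mYFP line 0 rose and 0 fell (6.32% and 4.67% of all genes), with a median of -0.159. In ppsdes 6 fell and 1 rose (4.75% and 7.27% of all genes), with a median of -2.32. CYP79F1, which commits chain-elongated methionine to the pathway, had 26.8, 43.1 and 18.21 CPM at 2 h and 36.8, 25.2 and 59.8 CPM at 0 h in the mYFP line, against 0.364, 0.817 and 1.18 CPM at 2 h and 9.89, 25.8 and 42.2 CPM at 0 h in ppsdes. Its log2 difference was 4.55 ± 0.81 (edgeR adjusted p = 0.0433). CYP83A1, the next enzyme, had 2.12 ± 0.42 (edgeR adjusted p = 0.0565), the sulfotransferase SOT18 1.36 ± 0.26 (edgeR adjusted p = 0.0522) and the chain-elongation enzyme MAM1 2.55 ± 0.80 (edgeR adjusted p = 0.201). At an unadjusted p below 0.05, 8 of the 13 were higher (5.22% of all genes were). In the MLACC lines the median difference was 0.784, and 7 of the 13 fell in the MLACC ppsdes line (4.67% of all genes fell there) and 1 in the MLACC line (6.83% of all genes). UGT74B1, a glucosyltransferase of glucosinolate core synthesis counted in the indole list, fell in ppsdes (-1.37 ± 0.14) and had -0.09 ± 0.13 in the mYFP line.

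Flavonoid genes had negative differences. Only 3 of 9 listed members had enough reads: chalcone synthase TT4, flavanone hydroxylase F3H and flavonol synthase FLS1. These 3 fell in the mYFP line, where 4.67% of all genes fell, and were not called in ppsdes. F3H had 15.7, 15.5 and 13.2 CPM at 2 h and 143, 204 and 246 CPM at 0 h in the mYFP line, against 117, 94.8 and 26.8 CPM at 2 h and 189, 148 and 144 CPM at 0 h in ppsdes. The 2 h groups did not overlap, and the ppsdes libraries at 2 h spread from replicate 1, at the top, to 26.8 CPM. The log2 differences of TT4, F3H and FLS1 were -2.05 ± 0.44, -2.73 ± 0.59 and -2.49 ± 0.54 (edgeR adjusted p = 0.075, 0.0757 and 0.0804). Of 14 growth and auxin genes, 3 had a higher mYFP response, with a median log2 difference of -0.548. In the mYFP line 3 rose and 2 fell (6.32% and 4.67% of all genes), and in ppsdes 7 rose and 1 fell (7.27% and 4.75%). IAA5, an early auxin gene, had 2.65, 3.60 and 3.27 CPM at 2 h in the mYFP line, against 3.41, 6.89 and 3.62 CPM at 2 h in ppsdes, and its log2 difference of -4.13 ± 0.79 (edgeR adjusted p = 0.0512) lay beside 0 h levels of 0.536 to 1.57 CPM in the mYFP line and 0.0492 to 0.104 CPM in ppsdes. IAA19 had -1.40 ± 0.35 and the cell wall gene XTH4 -0.92 ± 0.22, neither called.

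The hormone pathways impaired in ppsdes had median differences between 0.173 and 0.289, apart from jasmonate factors and outputs at 0.343, jasmonate turnover at 1.12 and ethylene synthesis at -0.129. Between the MLACC lines, where the response to MLACC itself enters, the median was -0.0492 over all genes. There jasmonate synthesis had 1.84, JAZ repressors 1.55, jasmonate turnover 1.96, and jasmonate factors and outputs 1.74. Ethylene synthesis had 2.13, ethylene receptors, signalling and outputs -0.0521, and salicylic acid and systemic resistance 1.24. Of 14 jasmonate synthesis genes tested, 9 had a higher mYFP response, with a median log2 difference of 0.289. In the mYFP line 5 rose (6.32% of all genes) and in ppsdes 3 (7.27%). OPR3, a reductase of jasmonate synthesis, rose in the mYFP line (1.70 ± 0.16) and had 0.74 ± 0.16 in ppsdes, a difference of 0.95 ± 0.22 (edgeR adjusted p = 0.0922). Of 10 JAZ repressor genes the median difference was 0.219, and JAZ10, a strongly jasmonate-induced repressor, rose in both lines (3.0 ± 0.22 in the mYFP line and 1.66 ± 0.23 in ppsdes; difference 1.34 ± 0.32, edgeR adjusted p = 0.0937). All 7 jasmonate turnover genes tested had a higher mYFP response, with a median log2 difference of 1.12. In the mYFP line 3 rose (6.32% of all genes) and in ppsdes 1 (7.27%). Only 2 of the 7 had an unadjusted p below 0.05 (edgeR), where 5.22% of all genes were higher. Errors were wide for members with few reads in ppsdes, with 6.61 ± 4.65 for ST2A and 3.74 ± 47.6 for AT2G38240 (SE). Of 22 ethylene receptor, signalling and output genes the median was 0.225, and of 19 salicylic acid and systemic resistance genes 0.173. WRKY70, a factor downstream of salicylic acid, fell in both lines. It had 25.3, 18.7 and 20.2 CPM at 2 h and 145, 85.0 and 130 CPM at 0 h in the mYFP line, against 2.91, 5.87 and 4.65 CPM at 2 h and 78.0, 70.2 and 71.3 CPM at 0 h in ppsdes, a difference of 1.55 ± 0.34 that was not called (edgeR adjusted p = 0.0824). Touch and calcium genes had a median of -0.0836 over 11 tested, early stress transcription factors 0.253 over 20, genes of pattern-triggered immunity -0.0205 over 18, heat shock genes 0.827 over 8 and circadian clock genes -0.113 over 17. Photosynthesis genes had 0.0764 over 26 and reference genes 0.00848 over 7. Of 20 abscisic acid and dehydration genes the median was -0.210. In the mYFP line 6 rose and 4 fell (6.32% and 4.67% of all genes), and in ppsdes 6 rose and 2 fell (7.27% and 4.75%).

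**Figure D5:**
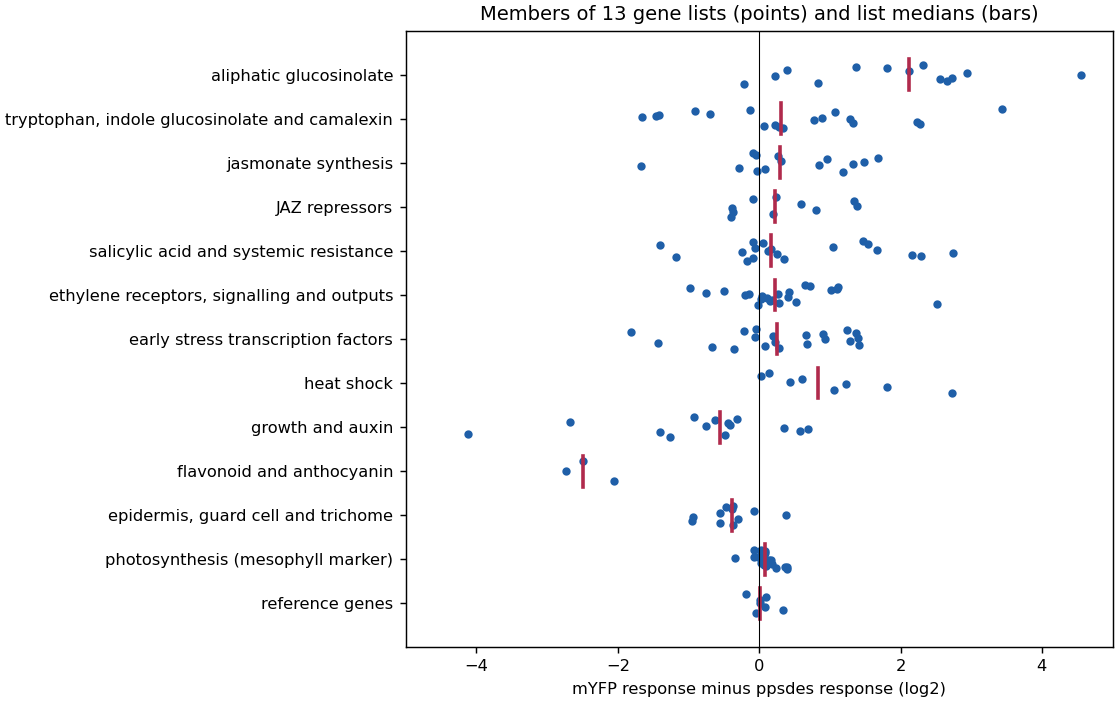
Log2 difference between the mYFP and ppsdes responses for the tested members of 13 gene lists (points) and their medians (bars). The aliphatic glucosinolate median lies at 2.12 and the flavonoid median, over 3 genes, at -2.49, while the photosynthesis and reference genes lie close to 0, at 0.0764 and 0.00848.

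At 0 h, 25 genes differed between the mYFP line and ppsdes (0.135% of genes tested), and 0 of the 13 genes with unequal responses were among them. This count was 3 to 10 with any 1 of the 6 libraries at 0 h left out, 16 without replicate 2 of ppsdes at 2 h, 19 to 32 without any other library at 2 h, and 217 with DESeq2. At 0 h the log2 difference between the lines was -0.66 ± 0.49 for CYS2, 0.12 ± 0.16 for MES11, 0.06 ± 0.11 for GLU2 and 0.18 ± 0.11 for AT1G29660 (SE).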

How the data were processed

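Poly(A) RNA of leaf samples was sequenced, and the authors deposited raw read counts per gene in 2 tables, one for the wild-type lines and one for the ppsdes lines. Per the submitters' processing notes, reads were inspected with FastQC 0.11.2, aligned with TopHat2 2.0.10 to TAIR10 and counted with HTSeq (version and settings not given in the sources used here). Strand was not kept by the library kit. The tables were joined by gene, and their lines that name no gene stayed out of totals and tests; in the 12 libraries reads outside genes were 1.33% to 1.97% of all, ambiguous reads 0.465% to 0.642% and multiply aligned reads 7.12% to 12.7%. Counts of the 12 libraries were filtered by filterByExpr, scaled by TMM and fitted with 1 mean per group in edgeR 4.0.16 (limma 3.58.1, R 4.3.3), with p-values of the quasi-likelihood F test adjusted after Benjamini-Hochberg over all 18484 genes. CPM use TMM over all 60 libraries, and SE is the log2 value divided by the root of F. The MLACC lines were fitted alone. Named were up to 10 called genes per direction by size with a mean of at least 5 CPM in 1 group, up to 4 called members per list, up to 6 genes called in opposite directions and the 6 mutated genes. Members and lists were chosen with earlier results of these data known. Replicate pairs differed by more than sampling noise (chi-square of at least 12.2 per gene), so each library counted once. Alternatives comprised other library sets, RLE size factors, other filters, DESeq2 1.42.0, limma voom, replicate blocks, leaving out libraries and an FDR of 0.05. Replicate samples are biological per the series description.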

Additional observations from a re-analysis of the deposited data

Results flagged for a closer look

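For 13 genes the 2 h response differed between the mYFP line and ppsdes by the test of the difference itself (edgeR, FDR below 0.01). The log2 differences, mYFP response minus ppsdes response, were 7.24 for CYS2, 3.15 for MYBC1, 2.81 for AT5G09443, 2.76 for MES11, 2.73 for AT5G23820, 2.50 for AT1G31550, 2.45 for AT1G18610, 2.01 for GLU2, 1.79 for SARK, 1.59 for BETA-UP, 1.47 for AT5G18640, 1.05 for AT1G15240 and -1.78 for AT1G29660. In the comparison of these 2 lines, genotype, construct and table cannot be told apart as their source.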

How the results depend on the processing

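For the difference of responses, 13 genes were called. The count was 89 with the 30 control libraries of all times in the fit, 24 with all 60 libraries, 220 with DESeq2, 132 with limma voom, 87 at an FDR below 0.05 and 7 to 19 with 1 library left out. All 13 genes kept their sign under each of these, but 10 of the 13 kept their call in the fit of all 60 libraries, where AT1G29660 (adjusted p = 0.602), AT5G09443 and AT1G15240 lost it. The difference at 0 h, with 25 genes called, gave 93, 70, 217, 137 and 123 genes under the same 5 settings and 3 to 32 with 1 library left out. It gave 55 without the 2 libraries of smallest 2 h response, a setting chosen after seeing the data. The MLACC lines, with 0 called, gave 242 in the fit of all 60 libraries, 384 with DESeq2 and 0 to 158 with 1 library left out. The responses of the mYFP line and of ppsdes stayed within 1.5 times of their counts under every alternative run. Replicate numbers are shared between the groups, but of 18 correlations of same-numbered deviations only 7 were above 0.1 (-0.358 to 0.532), so the numbers were not taken as pairs. With a replicate block within each line 0 of the 13 genes were called, and 12 of them had an adjusted p below 0.05. The same setting gave 4 genes called at 0 h, a count that cannot be compared with the 25. Blocks that each lie within 1 line cannot be separated from the difference between the lines at 0 h. A block shared by both tables gave 9 at 0 h and 11 for the difference of responses. Residual degrees of freedom were 8, and genes with few reads in ppsdes, such as CYS2, have wide errors there. The causes of these changes were not tested.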
